A study of Drosophila melanogaster with 4 samples.

Results

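The genes described here encode subunits of the proteasome in adult Drosophila melanogaster testes, together with paralogs of these subunits, classed here as testis forms by name. Members were taken by name. They were genes called Prosalpha, Prosbeta, Rpn or Rpt with a number, listed above 0 FPKM in at least 1 library. FPKM is a count of sequenced fragments divided by transcript length and by the mapped total of its library. The pattern matched 47 of the 16510 gene names, and 46 of these were members. Names ending in T or R, with or without a number after it, were taken as the 15 testis paralogs, and the other 31 as general subunits. Without the endings R1 and R2, 9 genes were paralogs. The remaining name, Prosalpha1, stood at 0 FPKM in all 4 libraries in both of its rows (build dm6, as all positions here, 2R, 7827303 to 7828678 and 7830413 to 7831788). The reference annotation now calls the gene at the second locus Prosalpha1R. The 13 other general core genes were above 0 in every library, and the listed 0 of this alpha subunit was not read as absence.

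Polyadenylated RNA was compared between flies labelled with the genotype Su(var)3-9 and flies labelled wild type, with 2 libraries each. Each library came from 50 testes of males 3 days old kept at 23 °C. Su(var)3-9 encodes a methyltransferase for histone H3 in heterochromatin. The allele and the background strain are not given in the labels, and nothing in them says whether the replicates of a genotype came from separate cultures, so p-values measure the spread between these libraries.

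The proteasome is the protease that degrades proteins tagged with ubiquitin. Its barrel, the core particle, is built of outer rings of alpha subunits, which gate the entrance, and inner rings of beta subunits. Prosbeta1, Prosbeta2 and Prosbeta5 are the beta subunits that carry the active sites. The regulatory particle caps the barrel. Its base holds the Rpt ATPases, which unfold substrates and feed them into the core, and its lid holds Rpn11, which removes the ubiquitin chain. Drosophila has additional gene copies for several subunits that are expressed in the male germline, and Prosalpha6T is known to be needed for the late steps of sperm maturation. As the series holds testes alone, it cannot show whether a paralog is specific to this tissue.

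Facts of the libraries bear on every value below. The targeted gene was listed at 0 and 7.83 FPKM in mutant-labelled libraries, against 7.93 and 9.74 FPKM in the wild type. The level of Su(var)3-9 therefore did not set mutant replicate 2 apart, and directions are given between libraries as labelled. The deposited intervals correspond to an estimated 1446647 and 1468278 fragments for mutant-labelled libraries, fewer than the 3207719 and 3366747 for the wild type. Depth thus differed with genotype. Members rested on an estimated 23.7 to 822 fragments per mutant-labelled library, and on 47.5 to 1609 per wild-type library. Of 18 testis germline markers 17 were above 0 in every library, with nos at 0 in all 4. Of the 17 tested, 3 rose (Mst87F, Mst84Dc and Mst98Ca), bol fell and 13 did not pass, where 11.4% of all genes tested rose and 8.67% fell. The median log2 difference of these markers was 0.10. Their summed level was 33525 and 31391 FPKM in mutant-labelled libraries, against 19595 and 18315 FPKM in the wild type, and most of it came from Mst87F and Mst84Dc. The summed level of 14 accessory gland genes was 11.7 and 70.8 FPKM in mutant-labelled libraries, and 2896 and 6.13 FPKM in the wild type. It stood apart in wild type replicate 1. Acp95EF was at 0 in all 4 libraries, and 13 of the 14 genes were above 0 in that library, against 3, 7 and 4 in the others. Of 16 muscle genes the summed level was 881 and 893 FPKM in mutant-labelled libraries, and 625 and 625.1 FPKM in the wild type. Act87E, which rose, had 550.4 and 512 FPKM of it in mutant-labelled libraries, and 311 and 322 FPKM in the wild type. Of the 15 muscle genes tested sls fell and 13 did not pass, with a median log2 difference of 0.16. The 6 ejaculatory duct and bulb genes summed to 296 and 265 FPKM in mutant-labelled libraries, and 144 and 94.0 FPKM in the wild type. PebIII, the gene of this list that rose, had 283 and 242 FPKM in mutant-labelled libraries, and 124 and 74.4 FPKM in the wild type, while Dup99B was at 0 in all 4. The 11 fat body genes summed to 70.0 and 94.0 FPKM in mutant-labelled libraries, and 87.5 and 95.4 FPKM in the wild type, with Yp1 and Fbp2 at 0 in all 4. Of the 5 fat body genes tested CG3523 fell and none rose. The part of these other cells in the results was not tested. In such bulk samples, fewer cells of a type and less RNA per cell cannot be told apart.

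More testis paralogs lay above the general subunit they are named after than below it. The comparison was made within each library, where FPKM accounts for length, by the 95% intervals deposited with the values. Of the 15 paralogs, 6 lay above the interval of their counterpart in 4 of 4 libraries, and 2 lay below it in all 4. The other 7 lay above it in 1 to 3 libraries and below it in none. These intervals cover the authors' estimate of measurement error in single libraries. Within the 11 families that have a paralog, the paralogs held 69.5% and 69.3% of the summed FPKM in mutant-labelled libraries, against 72.3% and 72.4% in the wild type.

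**Figure D1:**
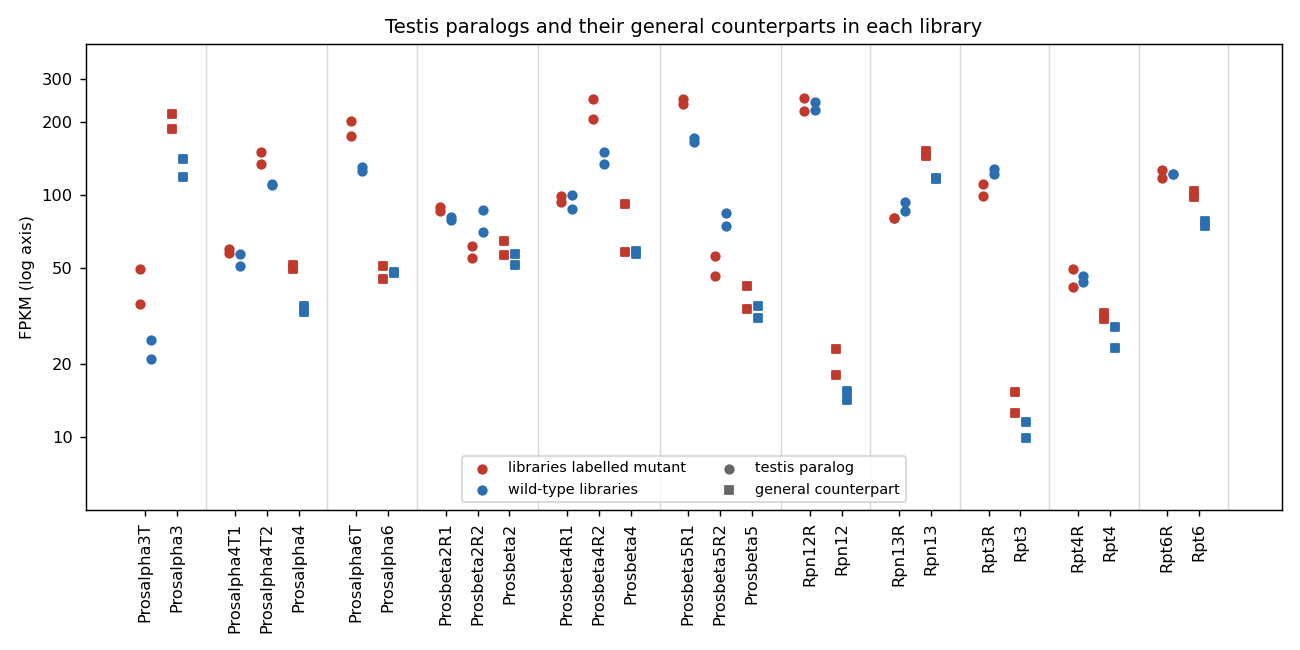
FPKM on a log axis of 15 testis paralogs (circles) and their 11 general counterparts (squares), with 1 point per library, mutant-labelled libraries on the left of each gene and the wild-type libraries on the right. Rpn12R and Rpt3R lie far above Rpn12 and Rpt3 in every library, while Prosalpha3T and Rpn13R lie below Prosalpha3 and Rpn13.

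The widest gaps were in the regulatory particle. Rpn12R, a paralog of a lid subunit (3L, 15041631 to 15042570), stood at 250.4 and 221 FPKM in mutant-labelled libraries, against 242 and 225 FPKM in the wild type. Its counterpart Rpn12 had 17.9 and 23.2 FPKM in mutant-labelled libraries and 14.2 and 15.5 FPKM in the wild type. The paralog was thus 14.0 and 9.54 times its counterpart in mutant-labelled libraries, against 16.99 and 14.5 times in the wild type. By mean wild-type level Rpn12R was the second highest of all 46 members, after the general lid subunit Rpn6.

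The ATPase genes of the base showed the same order within families. Rpt3R (3R, 9754735 to 9756510) had 111 and 99.3 FPKM in mutant-labelled libraries and 122 and 128 FPKM in the wild type. Rpt3, on the X chromosome, was the lowest member of all, with 15.4 and 12.5 FPKM in mutant-labelled libraries, against 9.86 and 11.5 FPKM in the wild type. Rpt3R was thus several times Rpt3 in each library, by 7.24 and 7.93 in mutant-labelled libraries and by 12.4 and 11.2 in the wild type. Rpt6R (3R, 30582198 to 30583697) was at 126 and 118 FPKM in mutant-labelled libraries, against 122 and 122 FPKM in the wild type. Rpt6 was closer to its paralog, at 104 and 97.9 FPKM in mutant-labelled libraries and 78.3 and 74.4 FPKM in the wild type. Rpt4R (3L, 11941912 to 11943485) had 49.3 and 41.6 FPKM in mutant-labelled libraries, against 43.7 and 46.3 FPKM in the wild type, and its libraries overlapped. For Rpt4 the values were 30.6 and 32.4 FPKM in mutant-labelled libraries and 23.2 and 28.5 FPKM in the wild type. Rpn13R, on X (5131898 to 5132985), is the paralog of the ubiquitin receptor Rpn13 and went the other way. It stood at 80.4 and 80.2 FPKM in mutant-labelled libraries, against 85.5 and 93.8 FPKM in the wild type. Rpn13 was above it throughout, with 144 and 151 FPKM in mutant-labelled libraries and 116 and 117 FPKM in the wild type.

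Among the alpha ring genes, 2 families were led by a paralog and 1 by the general gene. Prosalpha6T (2L, 13232039 to 13233058) was at 202 and 174 FPKM in mutant-labelled libraries, against 125 and 130.04 FPKM in the wild type. Prosalpha6 had 45.0 and 50.7 FPKM in mutant-labelled libraries, against 48.0 and 47.5 FPKM in the wild type. The paralog was high, and its libraries did not overlap between genotypes, whereas those of Prosalpha6 did. Such separation was common, with 32.2% of all 10784 genes tested above and 32.7% below in mutant-labelled libraries. Prosalpha4T2 (2R, 24500780 to 24502277) had 149.9 and 135 FPKM in mutant-labelled libraries, against 109 and 111 FPKM in the wild type. Prosalpha4T1 (3R, 20748184 to 20749074) was lower, with 59.5 and 57.4 FPKM in mutant-labelled libraries and 56.9 and 50.8 FPKM in the wild type. Their counterpart Prosalpha4 had 51.4 and 49.3 FPKM in mutant-labelled libraries, against 32.9 and 34.7 FPKM in the wild type. Both paralogs together held 80.3% and 79.6% of the FPKM of this family in mutant-labelled libraries, against 83.5% and 82.3% in the wild type. Prosalpha3T (3R, 31122527 to 31123415) was the lowest paralog, at 49.5 and 35.4 FPKM in mutant-labelled libraries and 25.1 and 20.9 FPKM in the wild type. Prosalpha3 was several times higher, with 215 and 187 FPKM in mutant-labelled libraries and 140.03 and 118 FPKM in the wild type.

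The beta ring has paralogs for the catalytic subunits Prosbeta2 and Prosbeta5 and for Prosbeta4, with a pair each. Prosbeta5R1 (2R, 23308654 to 23309816) was at 248 and 237 FPKM in mutant-labelled libraries, against 172 and 165 FPKM in the wild type. Prosbeta5R2 (2L, 17990418 to 17991951) was at 55.7 and 46.3 FPKM in mutant-labelled libraries, against 83.9 and 74.3 FPKM in the wild type. Prosbeta5, the general subunit, was the lowest of the 3, with 42.2 and 33.6 FPKM in mutant-labelled libraries and 34.6 and 31.1 FPKM in the wild type. The pair of paralogs thus differed in opposite directions between genotypes, each without overlap, while the libraries of Prosbeta5 overlapped. Of all genes tested, 32.2% lay above and 32.7% below without overlap. Together the pair held 87.8% and 89.4% of the family's FPKM in mutant-labelled libraries and 88.1% and 88.5% in the wild type, ranges that overlapped.

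Prosbeta4R1 and Prosbeta4R2 are neighbours on 2L (2653046 to 2653926 and 2655394 to 2657102). Prosbeta4R2 had 249.9 and 205 FPKM in mutant-labelled libraries, against 134 and 151 FPKM in the wild type. Prosbeta4R1 had 98.6 and 93.8 FPKM in mutant-labelled libraries and 99.6 and 87.7 FPKM in the wild type. The libraries of Prosbeta4R2 did not overlap between genotypes, and those of Prosbeta4R1 did. Without overlap, 32.2% of all genes tested lay above and 32.7% below, so such separation does not set a gene apart. Prosbeta4 was at 91.4 and 58.0 FPKM in mutant-labelled libraries, wide apart,, against 58.5 and 57.2 FPKM in the wild type. In the Prosbeta2 family the levels were close. Prosbeta2R1, on X (5808954 to 5810158), had 85.6 and 88.7 FPKM in mutant-labelled libraries and 78.6 and 81.1 FPKM in the wild type. Prosbeta2R2 (3R, 5217751 to 5219528) had 55.0 and 61.6 FPKM in mutant-labelled libraries and 86.5 and 70.5 FPKM in the wild type. Prosbeta2 lay at 64.6 and 56.2 FPKM in mutant-labelled libraries, against 51.4 and 56.9 FPKM in the wild type. Of these 3 genes, Prosbeta2R2 was the lower one in mutant-labelled libraries, with no overlap.

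By mean wild-type level the paralogs ran from Rpn12R (233 FPKM) through Prosbeta5R1 (168), Prosbeta4R2 (142), Prosalpha6T (128), Rpt3R (125), Rpt6R (122) and Prosalpha4T2 (110 ± 0.882 FPKM, SD, n = 2). Below these came Prosbeta4R1 (93.6), Rpn13R (89.7), Prosbeta2R1 (79.8), Prosbeta5R2 (79.1), Prosbeta2R2 (78.5), Prosalpha4T1 (53.9), Rpt4R (45.0) and Prosalpha3T (23.0). Among neighbours in this order, the wild-type libraries of Prosalpha6T and Rpt3R overlapped, as did those of Rpt3R and Rpt6R, of Prosbeta4R1 and Rpn13R, and of Prosbeta2R1, Prosbeta5R2 and Prosbeta2R2. Their order is therefore not resolved. The median member was far above the median gene, with 96.2 FPKM in mutant-labelled libraries and 93.6 FPKM in the wild type for paralogs, and 122 and 101 FPKM for general subunits. Over all 10784 genes tested the medians were 13.6 FPKM in mutant-labelled libraries and 14.3 FPKM in the wild type.

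The gene models differed between the classes. Of the 15 paralogs 6 have a single exon in their longest annotated transcript, and 4 of the 31 general subunits do. No paralog has more exons than its counterpart, 10 have fewer and 5 have as many. General subunits with a paralog lie on X in 4 families (Prosalpha4, Rpt3, Rpt4 and Rpt6), and all 5 paralogs of these 4 genes are autosomal. Prosbeta2R1 and Rpn13R are on X, and their counterparts are not.

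The genotypes were then compared with limma on log2(FPKM + 1), fitted over all 10784 genes that averaged 1 FPKM or more, and a gene was called at a Benjamini-Hochberg adjusted p under 0.05. All 46 members were tested. Of the 31 general subunits 10 rose in mutant-labelled libraries (32.3%), none fell and 21 did not pass. Of the 15 testis paralogs 3 rose (20%), 1 fell and 11 did not pass. Over all genes tested 11.4% were called higher and 8.67% lower, 20.1% in all. At an unadjusted p under 0.05 in the same fit, 16 general subunits were higher and 0 lower, and 5 paralogs were higher and 3 lower. Of all 10784 genes tested, 3989 had an unadjusted p under 0.05 in either direction. The median log2 difference was 0.29 for the general subunits and 0.04 for the paralogs, beside -0.0075 over all genes tested. Both mutant-labelled libraries lay above both wild-type libraries for 22 general subunits and 7 paralogs, and below them for 0 and 4, where 32.2% and 32.7% of all genes tested did so.

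Level and transcript length moved with these differences. Among the 1557 genes with a mean of 100 to 500 FPKM, which include 25 members, 35.0% were called higher and the median log2 difference was 0.25. Both values are close to those of all 31 general subunits. The sets differ, as the 25 members include paralogs and not every general subunit lies in this range of level. The median was 0.26 in 2136 genes with a longest transcript of 500 to 1000 bases and 0.13 in 3497 genes of 1000 to 2000 bases. Of the members, 13 and 31 lie in these length classes. Transcripts had a median of 1107 bases for the paralogs and 1393 bases for the general subunits. Spearman's rho between difference and length was -0.37 over 15 paralogs, -0.57 over 31 general subunits and -0.32 over 10760 genes, all within the same 4 libraries. With a loess trend on length removed from each library, 1 general subunit and 1 paralog were higher and 1 paralog lower, and the medians were 0.15 and -0.14. Quantile normalization left 2 general subunits and 1 paralog higher and 2 paralogs lower, with medians of 0.17 and -0.0096. Rpn7 and Prosbeta5R2 passed under both alternatives. With any 1 library left out no member passed, and no gene at all without mutant replicate 1 or without mutant replicate 2.

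**Figure D2:**
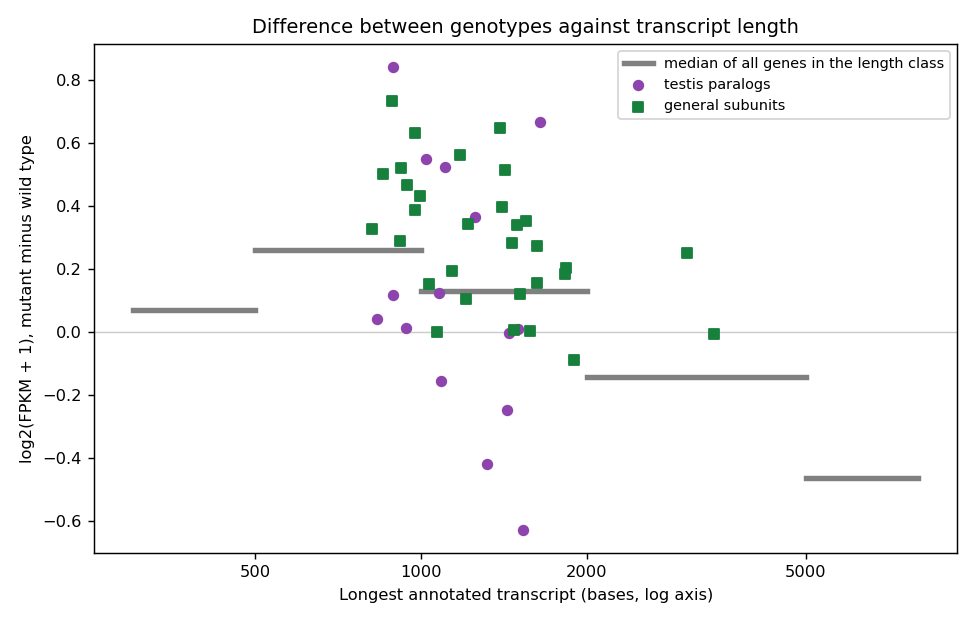
Log2 difference in FPKM + 1, mutant minus wild type, against the longest annotated transcript in bases on a log axis, for 15 testis paralogs (circles) and 31 general subunits (squares). Grey lines give the median of all genes tested in each length class, the outer classes being open, and fall from 0.26 at 500 to 1000 bases to -0.46 above 5000 bases.

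Testis paralogs of the core particle differed in both directions. Prosbeta5R1 rose, with 243 ± 8.03 FPKM in mutant-labelled libraries and 168 ± 4.86 FPKM in the wild type (SD, n = 2; log2 difference 0.53, SE 0.06, limma adjusted p = 0.0164). Prosalpha6T rose to a mean of 188 FPKM in mutant-labelled libraries, against 128 FPKM in the wild type (log2 difference 0.55, SE 0.10, limma adjusted p = 0.0313). Prosbeta4R2 rose to 227 FPKM, against 142 FPKM in the wild type (log2 difference 0.67, SE 0.13, limma adjusted p = 0.0378). In the reference annotation 4.19% of its exon length overlaps Or23a on the same strand. Prosbeta5R2 was the paralog that fell, with 51.0 ± 6.65 FPKM in mutant-labelled libraries and 79.1 ± 6.82 FPKM in the wild type (SD, n = 2; log2 difference -0.63, SE 0.13, limma adjusted p = 0.0452). Without the filter on low genes Prosbeta4R2 and Prosbeta5R2 did not pass. Prosalpha3T had the highest log2 difference of all members, 0.84, with an SE of 0.21, and did not pass (limma adjusted p = 0.0621). Prosalpha4T2 (log2 difference 0.37, limma adjusted p = 0.0525) and Prosbeta2R2 (-0.42, limma adjusted p = 0.111) did not pass either. Prosbeta2R1, Prosalpha4T1 and Prosbeta4R1 had log2 differences of 0.13, 0.12 and 0.04.

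None of the 5 paralogs of the regulatory particle passed by limma, and 1 of them, Rpt3R, had an unadjusted p under 0.05. Their log2 differences lay between -0.25 and 0.01. Rpt3R had -0.25 (95% interval -0.49 to -0.0054, limma adjusted p = 0.130) and Rpn13R -0.16 (-0.38 to 0.07). Both had their mutant-labelled libraries below those of the wild type, as did 32.7% of all genes tested. Rpt6R had a log2 difference of -0.0039 (95% interval -0.20 to 0.20), Rpt4R of 0.01 (-0.32 to 0.34) and Rpn12R of 0.01 (-0.23 to 0.26). Under quantile normalization Rpt3R was called lower, with a log2 difference of -0.41 (limma adjusted p = 0.0438). Summed FPKM of these 5 genes was 617 and 560 in mutant-labelled libraries and 615 and 615 in the wild type, and it overlapped. As a share of the summed FPKM of all genes it was lower without overlap, at 0.0600% and 0.0557% in mutant-labelled libraries against 0.0723% and 0.0759% in the wild type. For the 18 general genes of the regulatory particle this share was also lower without overlap. It was 0.200% and 0.199% in mutant-labelled libraries, against 0.206% and 0.215% in the wild type. For the 13 general core genes it was higher without overlap. Summed FPKM of the 10 core paralogs did not overlap, with 1254 and 1134 FPKM in mutant-labelled libraries against 971 and 941 FPKM in the wild type. Their share of all genes' FPKM did overlap, at 0.122% and 0.113% in mutant-labelled libraries and 0.114% and 0.116% in the wild type.

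**Figure D3:**
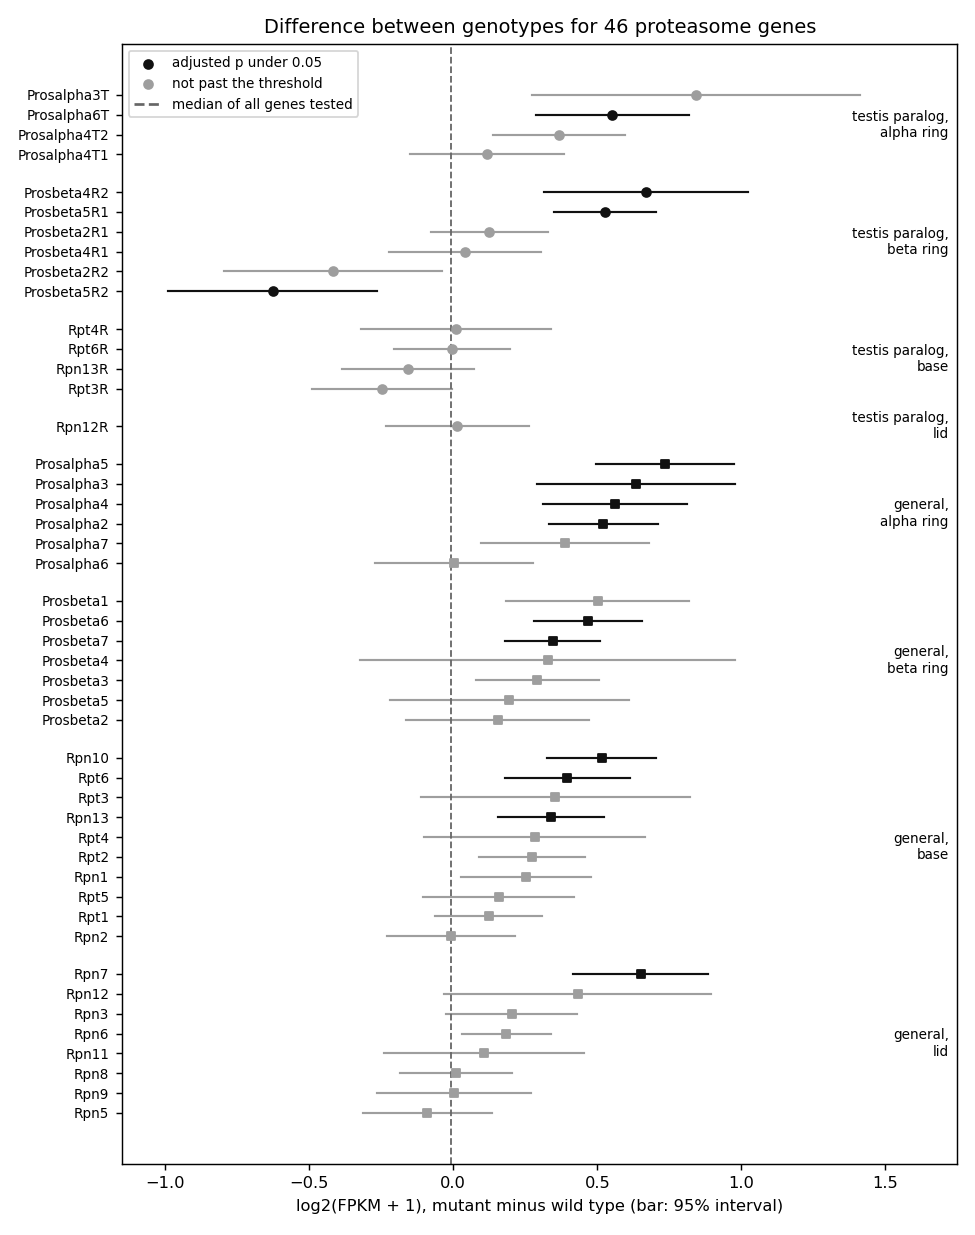
Log2 difference in FPKM + 1, mutant minus wild type, for 46 proteasome genes with its 95% interval from limma, grouped by class and by part of the proteasome. Black marks passed an adjusted p of 0.05. The 10 black general subunits all lie to the right of the median of all genes (dashed), and of the 4 black paralogs Prosbeta5R2 lies to the left.

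General subunits of the alpha ring had the largest share called. Of 6 genes 4 rose, none fell, and the median log2 difference was 0.54. Over all genes tested 11.4% rose, and 22.4% did among those of 500 to 1000 bases, where the median of these 6 also lies. With the length trend removed none of the 4 passed, and under quantile normalization Prosalpha4 alone did. The order of the parts thus depends on the processing. Prosalpha5 had the largest difference of the class, with 255 and 239 FPKM in mutant-labelled libraries against 139.6 and 156 FPKM in the wild type (log2 difference 0.73, SE 0.09, limma adjusted p = 0.0156). Prosalpha3 (0.63, limma adjusted p = 0.0394), Prosalpha4 (0.56, 0.0271) and Prosalpha2 (0.52, 0.0185) also rose. Prosalpha2 was the highest alpha gene, with 282 and 303 FPKM in mutant-labelled libraries and 208 and 199 FPKM in the wild type. Prosalpha7 did not pass, at 242 and 207 FPKM in mutant-labelled libraries and 179 and 163 FPKM in the wild type (log2 difference 0.39, limma adjusted p = 0.0759). Prosalpha6, whose paralog Prosalpha6T rose, had a log2 difference of 0.0013 with a 95% interval of -0.27 to 0.28. Within this ring it was the gene with the smallest difference.

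Of 7 general beta genes 2 rose and none fell, where 11.4% of all genes tested rose. The median log2 difference of the 7 was 0.33. Prosbeta6 had 205 and 192 FPKM in mutant-labelled libraries against 141 and 145 FPKM in the wild type (log2 difference 0.47, SE 0.07, limma adjusted p = 0.0222). Prosbeta7 had 228 and 224 FPKM in mutant-labelled libraries against 175 and 181 FPKM in the wild type (log2 difference 0.35, SE 0.06, limma adjusted p = 0.0307). Neither subunit is catalytic, but the other non-catalytic genes, Prosbeta3 and Prosbeta4 (limma adjusted p = 0.384), did not pass. The catalytic genes did not pass, with log2 differences of 0.50 for Prosbeta1 (limma adjusted p = 0.0543), 0.15 for Prosbeta2 (0.396) and 0.19 for Prosbeta5 (0.410). Prosbeta1 was at 265 and 218 FPKM in mutant-labelled libraries, against 173 and 166 FPKM in the wild type. It lay above without overlap, as did 32.2% of all genes tested. Prosbeta3, the highest gene of the ring, had 291 and 261 FPKM in mutant-labelled libraries and 228 and 222 FPKM in the wild type (log2 difference 0.29, limma adjusted p = 0.0730).

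In the base 3 of 10 general genes rose and none fell, where 11.4% of all genes tested rose. The median log2 difference of the 10 was 0.28. Rpn10 and Rpn13 encode ubiquitin receptors. Rpn10 had 170.04 and 167 FPKM in mutant-labelled libraries against 114 and 121 FPKM in the wild type (log2 difference 0.52, SE 0.07, limma adjusted p = 0.0190). Rpn13 rose by 0.34 on the log2 scale (SE 0.07, limma adjusted p = 0.0399) and the ATPase gene Rpt6 by 0.40 (SE 0.08, limma adjusted p = 0.0407). For Rpt6, 12.96% of the exon length overlaps CG1801 on the opposite strand, and no source used here states whether fragments were assigned by strand. The other ATPase genes had log2 differences of 0.12 (Rpt1), 0.27 (Rpt2), 0.35 (Rpt3), 0.28 (Rpt4) and 0.16 (Rpt5). The scaffold genes of the base, Rpn1, which also binds ubiquitin, and Rpn2, had differences of 0.25 and -0.0073. Rpn2 was at 129.6 and 122 FPKM in mutant-labelled libraries, against 121 and 132 FPKM in the wild type, which overlapped.

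In the lid 1 of 8 general genes rose and none fell, near the 11.4% of all genes tested that rose. Rpn7 rose, with 153 and 143 FPKM in mutant-labelled libraries against 98.2 and 90.01 FPKM in the wild type (log2 difference 0.65, SE 0.09, limma adjusted p = 0.0182). In its model 6.32% of the exon length overlaps CG34376 on the opposite strand. The other 7 lid genes did not pass, and the median of all 8 was 0.14. Rpn6, the highest member of all, had 379.9 and 361 FPKM in mutant-labelled libraries and 327 and 325 FPKM in the wild type (log2 difference 0.18, SE 0.06, limma adjusted p = 0.0962). Rpn11, the deubiquitinase, had 109 and 88.3 FPKM in mutant-labelled libraries and 93.1 and 89.2 FPKM in the wild type, and its libraries overlapped. Its partner Rpn8 had a log2 difference of 0.0082 (95% interval -0.19 to 0.20) and Rpn5 of -0.09 (-0.31 to 0.14). Rpn9, the second lid gene by mean over the 4 libraries, had 143 and 132 FPKM in mutant-labelled libraries, against 146 and 129 FPKM in the wild type (log2 difference 0.0028, 95% interval -0.26 to 0.27). Rpn12 (0.43, SE 0.17) and Rpn3 (0.20, SE 0.08) did not pass. Their mutant-labelled libraries lay above those of the wild type, as in 32.2% of all genes tested. Rpn3 was the lowest lid gene after Rpn12, with 63.1 and 59.8 FPKM in mutant-labelled libraries and 54.1 and 52.5 FPKM in the wild type.

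Of 11 general subunits with a paralog 4 rose (median log2 difference 0.34), and of 20 without one 6 rose (median 0.26). Over all genes tested 11.4% rose. At an unadjusted p under 0.05 by limma 4 of the 11 and 12 of the 20 were higher. Of all 10784 genes, 3989 had such a p in either direction. The difference between these classes of general subunits was not tested. Summed FPKM of the 31 general genes was 4330 and 4074 in mutant-labelled libraries and 3361 and 3318 in the wild type. As a share of the summed FPKM of all genes it was 0.421% and 0.406% in mutant-labelled libraries, against 0.395% and 0.409% in the wild type, and these ranges overlapped. The summed FPKM of all genes differed itself, with 1028898 and 1004211 in mutant-labelled libraries against 851134 and 810704 in the wild type.

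The ratio of a paralog to its counterpart is read within a library, so a factor common to all genes of the library cancels. This ratio was lower in the mean of mutant-labelled libraries for 11 of 15 paralogs and higher for 4. The libraries did not overlap for 9 of the lower and all 4 of the higher ones. Of the single genes tested, 32.7% lay below and 32.2% above without overlap. A ratio combines the spread of a pair of genes, and no such share was computed for ratios of other pairs. The ratios are given as a description and were not tested. Paralogs of 1 family share a counterpart, and their ratios are not independent.

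The largest decrease in ratio was in the Prosbeta5 family. The ratio of Prosbeta5R2 to Prosbeta5 was 1.32 and 1.38 in mutant-labelled libraries, against 2.43 and 2.39 in the wild type, a log2 difference of -0.84. That of Rpt3R to Rpt3 had a log2 difference of -0.63, and rested on 28.2 to 68.4 estimated fragments of Rpt3 per library. The ratio of Prosbeta2R2 to Prosbeta2 differed by -0.58, that of Rpn13R to Rpn13 by -0.50 and that of Prosalpha4T1 to Prosalpha4 by -0.46. For Rpt6R and Rpt6 it was 1.22 and 1.201 in mutant-labelled libraries, against 1.56 and 1.65 in the wild type. In each of the 5 families of the regulatory particle the ratio was lower in both mutant-labelled libraries. The 4 higher ratios were those of Prosalpha6T (log2 difference 0.55), Prosbeta4R2 (0.34), Prosbeta5R1 (0.33) and Prosalpha3T (0.23). Over all members the paralogs held 30.2% and 29.4% of the summed FPKM in mutant-labelled libraries, against 32.1% and 31.9% in the wild type. The difference was -2.23 percentage points.

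**Figure D4:**
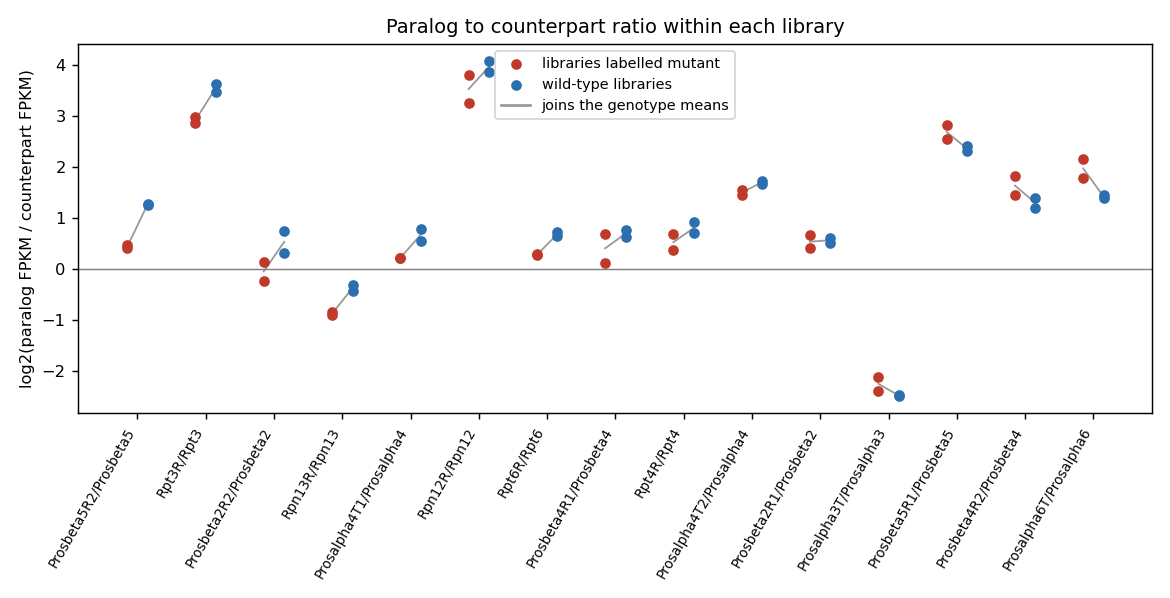
Log2 ratio of paralog FPKM to counterpart FPKM in each library for 15 pairs, ordered by the difference between genotypes, with mutant-labelled libraries on the left of each pair and the wild-type libraries on the right. Grey lines join the genotype means. The first 11 pairs have lower means in mutant-labelled libraries, with Prosbeta5R2 to Prosbeta5 the lowest at -0.84, and the last 4 have higher means.

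Genes that act on or with the proteasome were read from lists of textbook members. Of 16 regulators, assembly factors and bound enzymes 5 rose, 1 fell and 10 did not pass, where 11.4% of all genes tested rose and 8.67% fell. The median log2 difference of the list was 0.31, beside -0.0075 over all genes. Sem1, a small lid subunit that the name rule does not take, rose by 0.57 on the log2 scale, with 219 and 196 FPKM in mutant-labelled libraries against 146 and 133 FPKM in the wild type (limma adjusted p = 0.0273). The proteasome regulator gene PI31 had 353 and 343 FPKM in mutant-labelled libraries against 272 and 269.7 FPKM in the wild type (log2 difference 0.36, limma adjusted p = 0.0229). The gene ntc encodes an F-box protein that binds PI31 in spermatids. It was at 423 and 392.4 FPKM in mutant-labelled libraries, against 314 and 336 FPKM in the wild type (log2 difference 0.33, limma adjusted p = 0.0477). Uch-L5, a deubiquitinase gene, rose to 381 and 356 FPKM in mutant-labelled libraries, against 271 and 262 FPKM in the wild type (0.47). Usp14, listed as CG5384, encodes another proteasome-bound deubiquitinase and rose to 115.5 and 118 FPKM in mutant-labelled libraries, against 87.0 and 90.9 FPKM in the wild type (0.39). CG3356 fell to 35.3 and 35.4 FPKM in mutant-labelled libraries, against 47.3 and 48.3 FPKM in the wild type (-0.42). The activator gene REG had a log2 difference of -0.14 and did not pass.

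Of 15 genes for ubiquitin supply and shuttling 2 rose, 2 fell and 11 did not pass (median log2 difference 0.07). These counts are near the shares over all genes tested, of which 11.4% rose and 8.67% fell. Uba1, the ubiquitin-activating enzyme gene, fell to 94.1 and 103 FPKM in mutant-labelled libraries, against 145 and 156 FPKM in the wild type (log2 difference -0.61, limma adjusted p = 0.0209). The shuttle factor gene Ubqn fell to 45.8 and 46.4 FPKM in mutant-labelled libraries, against 70.3 and 67.6 FPKM in the wild type (-0.57, limma adjusted p = 0.0207). RpL40, a ubiquitin fusion with a ribosomal protein, rose to 347 and 309 FPKM in mutant-labelled libraries, against 238 and 203 FPKM in the wild type (0.57). Npl4, a cofactor of the segregase that pulls tagged proteins out of complexes, rose to 139 and 137 FPKM in mutant-labelled libraries, against 113 and 110.3 FPKM in the wild type (0.30). The polyubiquitin genes Ubi-p63E and Ubi-p5E had log2 differences of 0.0093 and 0.13 and did not pass.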

How the data were processed

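The samples were 4 libraries of adult testes, 2 per genotype, grouped by their labels. Libraries were made from 1 µg of total RNA with a TruSeq kit and read on a MiSeq, per the labels' protocols. The submitters' processing notes name TopHat, Cufflinks and build dm6. Their versions, settings and annotation were not given in the sources used here. Per the file headers, each gene has an FPKM and its 95% interval as Cufflinks computed them. Rows of the 145 repeated names were summed. FPKM is scaled per library by the authors, so abundant genes can move the others. Fragments were estimated by dividing 2 times FPKM by the upper half-width of the interval and squaring, assuming counting error alone, and no count model was run.

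Genotypes were tested in R 4.3.3 by limma 3.58.1, using lmFit and a trended eBayes on log2(FPKM + 1). Genes had to average 1 FPKM over the 4 libraries, and Benjamini-Hochberg adjustment ran over all of them. The pseudocount shrinks fold changes of low genes. The procedure was tested on simulated data. Ensembl gene models of this assembly, matched by 16278 names, gave lengths, exons and overlaps. Paralogs can share fragments, which was not measured, and no sequence table was used here. Named were all paralogs with counterparts, all called members and the 2 highest and 2 lowest general genes of each part by mean level. Members, lists and alternatives were chosen with earlier results of these data known.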

Additional observations from a re-analysis of the deposited data

How the results depend on the processing

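Of the 14 members called, 10 general subunits and 4 paralogs, all stayed called with a pseudocount of 0.1 or 5, with repeated names left out, at a minimum mean of 5 FPKM and with scaling to the median. Each of the last 2 settings gave 5 paralogs higher. Scaling to the median moved the median of the general subunits to 0.35. Without a filter on low genes 11 of the 14 stayed, and 0 paralogs were lower. Quantile normalization gave 2 general subunits and 1 paralog higher and 2 paralogs lower, with medians of 0.17 and -0.0096, and kept 3 of the 14. Removal of the length trend gave 1 general subunit and 1 paralog higher, with medians of 0.15 and -0.14, kept 3 of the 14 and left 1325 genes called of all. Without a variance trend 0 general subunits and 0 paralogs passed in either direction by limma, against 1103 genes of all. In that fit 11 general subunits and 6 paralogs had an unadjusted p under 0.05, as did 3748 of all 10784 genes tested. With the strict ending T, T1, T2 or R, 9 genes were paralogs, 1 of them higher and 0 lower, and 1 general gene was lower. Leaving out 1 library in turn left 0 to 0 members called in either class and 0 to 262 genes of all, while 10 to 17 general subunits and 1 to 6 paralogs had an unadjusted p under 0.05. The causes of these changes were not tested. The medians of the general subunits and paralogs without mutant replicate 2 were 0.31 and 0.10. With the replicate number as a block 8 general subunits and 3 paralogs were higher and 1 paralog lower, and 9 of the 14 stayed called. The deviations of same-numbered libraries had a correlation of -0.05 across genes. This single value showed no shared effect of the number, but it cannot exclude that same-numbered libraries were handled together. The shallower mutant-labelled libraries limit the lowest members, with 23.7 estimated fragments for Rpn12 in mutant replicate 1.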

Other observations

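Cullin ubiquitin ligases attach the ubiquitin that the proteasome reads. Of 20 genes for cullins, their adaptors and RING partners 3 rose, 2 fell and 15 did not pass (median log2 difference 0.18). Over all genes tested 11.4% rose and 8.67% fell, and the counts of this list are near these shares. Roc1b, a RING partner of cullins, had 245 and 230 FPKM in mutant-labelled libraries against 142 and 104 FPKM in the wild type (log2 difference 0.96, SE 0.17, limma adjusted p = 0.0311). Cul3, whose ligase acts in spermatid maturation, fell to 370 and 369 FPKM in mutant-labelled libraries, against 461 and 469 FPKM in the wild type (log2 difference -0.33, SE 0.05, limma adjusted p = 0.0229). The adaptor gene EloB rose to 159 and 147 FPKM in mutant-labelled libraries, against 108 and 111 FPKM in the wild type (log2 difference 0.48, limma adjusted p = 0.0248). The F-box gene ntc, already described, was the other one that rose. The F-box gene ago fell to 27.7 and 24.2 FPKM in mutant-labelled libraries, against 39.2 and 39.3 FPKM in the wild type (log2 difference -0.58, limma adjusted p = 0.0380). The adaptor gene klhl10 was listed at 0 in all 4 libraries and was not tested.

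Cap-n-collar, encoded by cnc, is a transcription factor that raises proteasome genes in flies under stress. It had 32.2 and 36.7 FPKM in mutant-labelled libraries, against 42.5 and 46.7 FPKM in the wild type, and did not pass (log2 difference -0.36, SE 0.12). Of 7 genes of cnc and its control none rose, 6 did not pass and Hrd3 fell, where 11.4% of all genes tested rose and 8.67% fell. Hrd3 had 113 and 104 FPKM in mutant-labelled libraries, against 154 and 149.6 FPKM in the wild type (log2 difference -0.48, limma adjusted p = 0.0264). It encodes part of a ligase complex of the endoplasmic reticulum.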
